A study of Mus musculus with 64 samples.

Results

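Foxp3 degradation in infant Treg cells was followed in 8 bulk RNA-seq libraries of a mouse series that holds 64. The members are all infant libraries of the degron experiment, 4 titled TIR1 and 4 titled WT, and every difference below is titled TIR1 minus titled WT. Both groups carried the Foxp3-AID allele, in which an auxin-inducible degron is fused to the N terminus of Foxp3 and an IRES followed by ZsGreen and iCre lies in the same transcript. The titles add ROSA26-TIR1(F74G) to one group, a plant ubiquitin ligase adaptor linked to mCherry behind a loxP-flanked stop, and leave ROSA26 as wild type in the other. TIR1 is therefore made only where Foxp3-driven Cre has acted, and the titled WT group has the degron-tagged Foxp3 without the ligase. All 8 libraries are labelled as spleen and lymph node Treg cells of mice given the auxin analogue 5-ph-IAA for 7 days, and the labels give no exact age. The genotype field of all 8 samples names the other genotype, while the library names match the titles. Under that field every sign given here would be turned. The TIR1 transgene is not among the counted genes and Foxp3 mRNA need not follow loss of the protein, so neither settles the direction. Whether the levels of other genes settle it was not tested.

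Treg cells restrain other T cells, and Foxp3 is the transcription factor that defines them. It maintains high levels of IL-2 receptor and coinhibitory receptors and keeps effector cytokine genes low. The degron removes the protein while the gene stays intact, so the comparison asks which transcripts differ after a week of induced degradation in the first weeks of life, when the Treg pool is still being built.

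Library totals ran from 33704114 to 55801009 read pairs. Titled TIR1 libraries were the shallower group, with at most 48285799 read pairs against at least 49587615. All 20 tested genes of the T cell receptor complex and its signalling were measured in every library. Levels are given as CPM, the counts of a gene scaled to a common library total, and these genes summed to 14449 to 15166 CPM in titled TIR1 and 14591 to 14913 in titled WT libraries. The library titled WT replicate 4 stood apart from its group. Its root-mean-square log2 difference was 0.400 to 0.417 from the other 3 titled WT libraries and 0.274 to 0.317 from the 4 titled TIR1 libraries, and on the first principal component, which held 48.8% of the variance, it scored -12.1 beside -22.7 to -14.0 for titled TIR1 and 27.2 to 31.4 for titled WT replicates 1 to 3. By root-mean-square log2 difference the titled TIR1 libraries were 0.289 to 0.354 from one another. Titled WT replicates 1 to 3 were 0.271 to 0.298 from one another. The labels do not say why titled WT replicate 4 stood apart from its group. The contrast was therefore fitted with all 8 libraries and with 7, without titled WT replicate 4. That library was left out because its position was known, so the calls with 7 libraries are not blind to the outcome. In bulk libraries, fewer cells of a type and less RNA per cell cannot be told apart.

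Of the markers of other cells, CD8 and NK cell genes summed to 16.2 to 21.0 CPM in titled TIR1 and 16.3 to 19.4 CPM in titled WT libraries, and Ncr1 and Rag1 had no read in any library. B and plasma cell markers summed to 347 to 448 CPM in titled TIR1, 284 to 324 CPM in titled WT replicates 1 to 3 and 348 CPM in titled WT replicate 4, most of it Ighm, the immunoglobulin heavy chain. Of the 15 markers in that list, 11 stayed under 1 CPM in all 8 libraries. Myeloid markers summed to 3.35 to 10.4 CPM in titled TIR1 and 3.89 to 4.51 CPM in titled WT libraries, with Lyz2 at 3.50 CPM in titled TIR1 replicate 3. Gamma-delta T cell markers summed to 10.3 to 15.8 CPM in titled TIR1 and 7.91 to 13.1 CPM in titled WT libraries, and erythroid markers stayed under 2 CPM in sum. Double-positive thymocyte markers summed to 93.7 to 109 CPM, 139 to 140 CPM and 102 CPM in the same order of groups, and stromal and endothelial markers to 198 to 247, 253 to 258 and 226 CPM. Most of the stromal and endothelial sum was Pecam1, and 6 of those 10 markers stayed under 1 CPM in all 8 libraries. Most of the double-positive sum was Cd1d1 and Chchd10, and most of the CD8 and NK sum was Cd8b1. The part of these cells in the differences below was not tested.

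Foxp3 itself (chromosome X, 7439883 to 7461484, GRCm39) stood at 347, 321, 373 and 367 CPM in titled TIR1 replicates 1 to 4 and at 361, 424, 402 and 297 CPM in titled WT replicates 1 to 4, and all values below follow that order. The groups overlapped. The log2 fold change was -0.06 ± 0.11 (SE) with 8 libraries and -0.15 ± 0.08 with 7, with edgeR adjusted p = 0.826 and 0.312. Gt(ROSA)26Sor, the noncoding transcript of the locus that holds the TIR1 transgene, stood at 19.9, 16.8, 20.3 and 16.0 CPM against 19.0, 13.6, 20.8 and 19.0 CPM and did not pass the test either. Neither reading is a check of the group labels.

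With all 8 libraries, edgeR's quasi-likelihood test called 3 of 16209 genes, or 0.0185%, all higher in titled TIR1, while 2827 genes had an unadjusted p under 0.05 and DESeq2 called 1108. Jun, a subunit of the AP-1 transcription factor (chromosome 4, 94937271 to 94940459, GRCm39), stood at 180.0, 189, 171 and 215 CPM in titled TIR1 and at 84.3, 84.7, 89.8 and 87.4 CPM in titled WT libraries. The 2 groups were far from overlapping, and titled WT replicate 4 fell among the other titled WT libraries. The log2 fold change was 1.14 ± 0.08 (SE) with 8 libraries and 1.15 ± 0.09 with 7, with edgeR adjusted p = 0.000231 and 2.08e-05.

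Tgm2, a transglutaminase that crosslinks proteins (chromosome 2, 157958322 to 157988356), was at 14.1, 20.8, 13.7 and 9.55 CPM in titled TIR1 and at 3.26, 2.47, 3.02 and 4.48 CPM in titled WT libraries. The fit gave a log2 fold change of 2.15 ± 0.25 with 8 libraries, edgeR adjusted p = 0.0171, and 2.33 ± 0.25 with 7. Ube2l6, the conjugating enzyme for the ubiquitin-like protein ISG15 (chromosome 2, 84629172 to 84640679), was at 42.2, 50.3, 41.8 and 35.6 CPM against 21.3, 13.4, 18.3 and 17.4 CPM. Its log2 fold change of 1.29 ± 0.15 had edgeR adjusted p = 0.0171 and remained 1.29 ± 0.16 with 7 libraries. For all 3 genes the lowest titled TIR1 library was above the highest titled WT library, titled WT replicate 4 included. Jun passed edgeR's test whichever library was left out, with adjusted p-values up to 0.00307. Tgm2 did not pass without titled TIR1 replicate 1 or 2 or titled WT replicate 1, 2 or 3 (adjusted p = 0.0998, 0.0533, 0.0995, 0.117 and 0.124), nor Ube2l6 without titled TIR1 replicate 1 or 2 or titled WT replicate 3 (adjusted p = 0.0998, 0.0533 and 0.0982), although their log2 fold changes stayed at 1.93 to 2.33 and 1.18 to 1.39. Tgm2 shares 21.8% of its exon bases with another gene, and reads there cannot be divided without strand.

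The promoter of Jun is shown because its transcript separated the groups most clearly, with an 8-base CRE-like element TGACATCA in capitals, 38 bases before the start site. The sequence is from RefSeq on GRCm38.p6, chr4:95052173-95052472, minus strand, and runs from 250 bases before to 50 bases after the start.

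Jun: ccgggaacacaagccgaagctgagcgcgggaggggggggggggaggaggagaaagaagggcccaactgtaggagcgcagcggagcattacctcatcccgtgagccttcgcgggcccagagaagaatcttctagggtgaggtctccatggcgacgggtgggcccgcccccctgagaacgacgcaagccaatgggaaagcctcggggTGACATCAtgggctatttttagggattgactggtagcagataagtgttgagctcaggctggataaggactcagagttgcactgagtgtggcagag

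The same 8 letters on either strand are in promoters of 4.18% of the 27025 gene symbols of the table and of 2 of the 22 matched AP-1 and immediate-early genes. This is a description of the letters and not of binding.

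**Figure D1:**
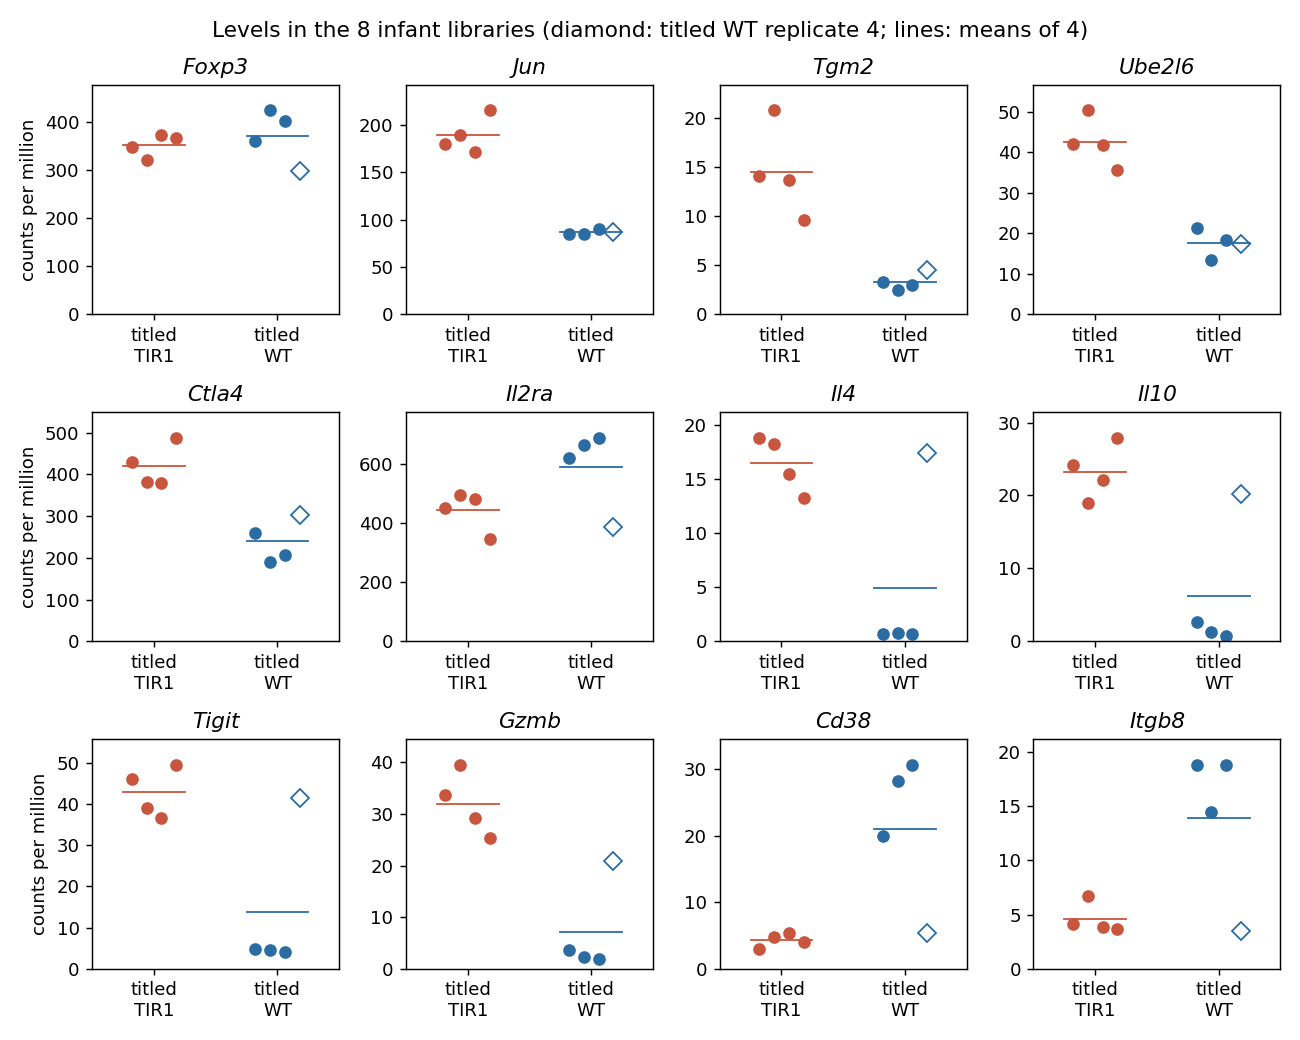
CPM in each infant library for 12 genes, with 1 point per library, titled TIR1 on the left, titled WT on the right, titled WT replicate 4 as an open diamond and lines at the means of 4 libraries. Jun, Tgm2 and Ube2l6 separate the groups with all 8 libraries, while Il4 in titled WT replicate 4 (17.5 CPM) lies among titled TIR1 libraries (13.3 to 18.8 CPM).

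Without titled WT replicate 4, edgeR called 1774 of 16136 genes, or 11.0%, of which 1057 (6.55% of genes tested) were higher and 717 (4.44%) lower in titled TIR1. All 1770 of these genes that were also tested with 8 libraries had the same sign there, and their median absolute log2 fold change was 0.781 with 7 libraries (all 1774) and 0.609 with 8. DESeq2, run on all 8 libraries, called 593 genes higher (3.66%) and 515 lower (3.18%), which included 504 of the 1057 and 434 of the 717. The shared signs and shared DESeq2 calls come from fits that reuse the 7 libraries behind the calls, so neither is independent support. With all 8 libraries, the titled groups did not overlap in CPM for 636 genes that were higher (3.92% of genes tested) and for 779 that were lower (4.81%). Among the genes called with 7 libraries this held for 346 higher and 269 lower genes. In the gene lists below, the calls of edgeR with 8 libraries were Jun and Ube2l6 alone, so edgeR's list counts with 7 libraries rest on leaving out titled WT replicate 4. For most lists the DESeq2 counts with 8 libraries are given beside them. Those counts leave out the 3487 genes to which DESeq2 gave no adjusted p. Prdm1, Il10, Tigit, Lag3, Il4 and Il21 are among these. With 8 libraries limma-voom with sample quality weights called 1427 genes, and these named genes were among them. Over all genes tested, 6.55% were higher and 4.44% lower with 7 libraries.

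**Figure D2:**
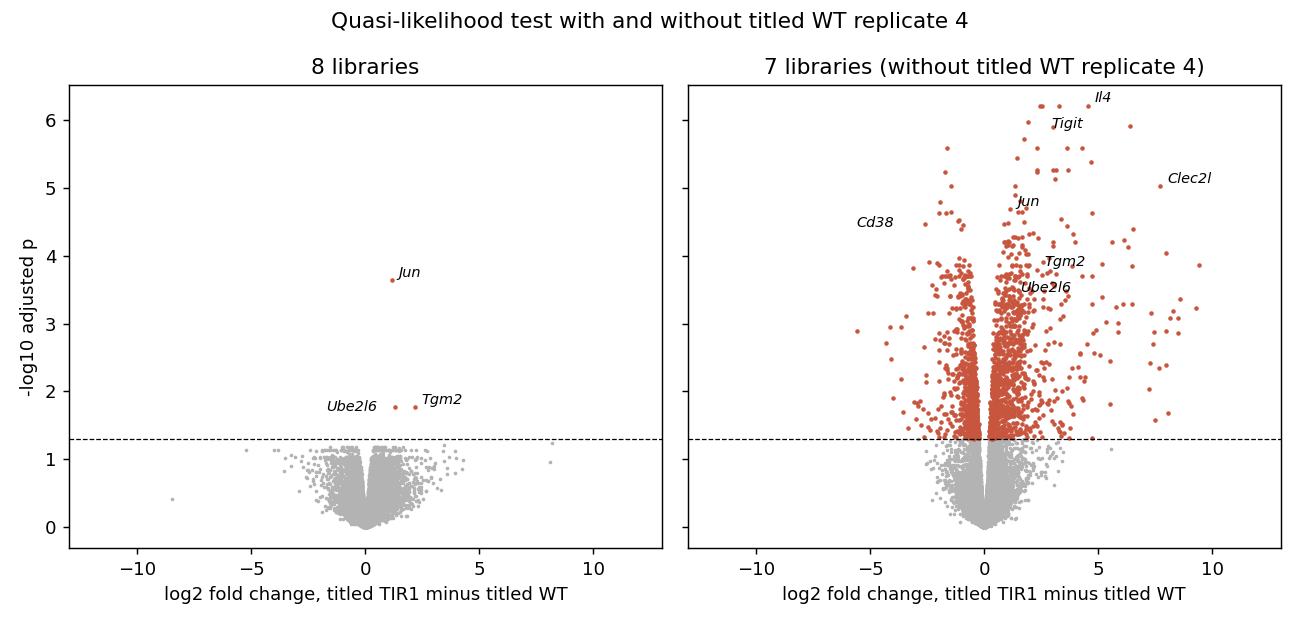
Log2 fold change (titled TIR1 minus titled WT) against -log10 of the edgeR adjusted p for every gene tested, with 8 libraries on the left and 7 on the right, and a dashed line at an adjusted p of 0.05. On the left 3 genes are above the line and on the right 1774.

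The position of titled WT replicate 4 was then read gene by gene among the 1774. It fell inside the range of the 4 titled TIR1 libraries for 987 genes (55.6%) and beyond them for 132 (7.44%). For 544 genes (30.7%) it lay between the titled TIR1 libraries and the other 3 titled WT libraries. For 62 genes (3.49%) it fell among titled WT replicates 1 to 3 and for 9 (0.507%) on their far side. For the other 40 genes the ranges overlapped. Jun and Ube2l6 were in the 62, as was Prf1, the pore-forming protein perforin, which stood at 11.7, 9.61, 10.9 and 9.96 CPM in titled TIR1 and 7.15, 6.84, 5.67 and 6.65 CPM in titled WT libraries. Prf1 had a log2 fold change of 0.70 ± 0.14 with 8 libraries (edgeR adjusted p = 0.0726) and 0.71 ± 0.16 with 7 (adjusted p = 0.0139, and 0.0744 without titled WT replicate 3 as well).

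The 10 genes with the largest increases with 7 libraries were Clec2l, Serpina3f, Glp1r, Ifi204, Il21, Havcr2, Arnt2, Il4, Gbp11 and Epas1. Il4, the cytokine of type 2 helper cells (chromosome 11, 53493809 to 53509496), was at 18.8, 18.3, 15.5 and 13.3 CPM in titled TIR1 and at 0.717, 0.771, 0.645 and 17.5 CPM in titled WT libraries. This was a log2 fold change of 4.55 ± 0.21 with 7 libraries (edgeR adjusted p = 6.21e-07) and 1.77 ± 1.14 with 8 (adjusted p = 0.477). Titled WT replicate 4 had a level of the titled TIR1 libraries, and the other 3 were under 1 CPM.

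Clec2l, a C-type lectin family member, was at 10.8, 9.33, 9.44 and 11.1 CPM against 0, 0.138, 0 and 8.21 CPM. Serpina3f, a serine protease inhibitor, was at 33.7, 23.7, 24.4 and 27.5 CPM against 0.504, 0.376, 0.101 and 11.5 CPM. Gbp11, a guanylate-binding protein, was at 98.2, 74.1, 89.1 and 71.8 CPM against 5.23, 2.29, 5.30 and 49.6 CPM. For these 3 genes titled WT replicate 4 lay below every titled TIR1 library but far above the other titled WT libraries. Il21, a cytokine that helps B cells, was at 3.98, 4.38, 3.87 and 4.94 CPM against 0.310, 0.0396, 0 and 4.77 CPM. Arnt2, a bHLH-PAS transcription factor, was at 11.2, 12.8, 13.8 and 12.5 CPM against 0.794, 0.336, 0.343 and 10.6 CPM. Epas1, which encodes HIF-2 alpha, was at 20.2, 24.6, 10.1 and 12.8 CPM against 1.63, 0.752, 0.847 and 20.1 CPM. With 8 libraries none of the 10 passed edgeR's test, and their edgeR adjusted p-values ran from 0.252 for Gbp11 to 0.529 for Il21 and Ifi204. With the same 8 libraries limma-voom with sample quality weights called all 10. Its adjusted p-values ran from 0.00594 for Serpina3f to 0.0413 for Havcr2, and its weight for titled WT replicate 4 was 0.539.

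Among the 10 largest decreases, ranked in the same way, were Cd38, Rasip1, Pstpip2, Ntn4, Actn2, Cxxc5, Tmem121b, Apol9b and Ptpn5. Cd38, an NAD-consuming ectoenzyme (chromosome 5, 44025895 to 44069717), was at 2.88, 4.81, 5.43 and 4.01 CPM in titled TIR1 and at 20.02, 28.3, 30.7 and 5.43 CPM in titled WT libraries. Its log2 fold change was -2.59 ± 0.22 with 7 libraries and -2.28 ± 0.48 with 8, with edgeR adjusted p = 3.36e-05 and 0.0918. Tmem121b, a transmembrane protein, was at 9.67, 9.98, 13.4 and 14.2 CPM against 41.3, 54.4, 48.4 and 14.3 CPM. Actn2, an actin crosslinker best known from muscle, was at 0.949, 1.15, 0.870 and 0.815 CPM against 5.06, 4.87, 2.96 and 1.31 CPM. In each of these 3 genes titled WT replicate 4 was closer to titled TIR1 than to its own group. Rasip1 shares 53.3% of its exon bases with another gene.

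**Figure D3:**
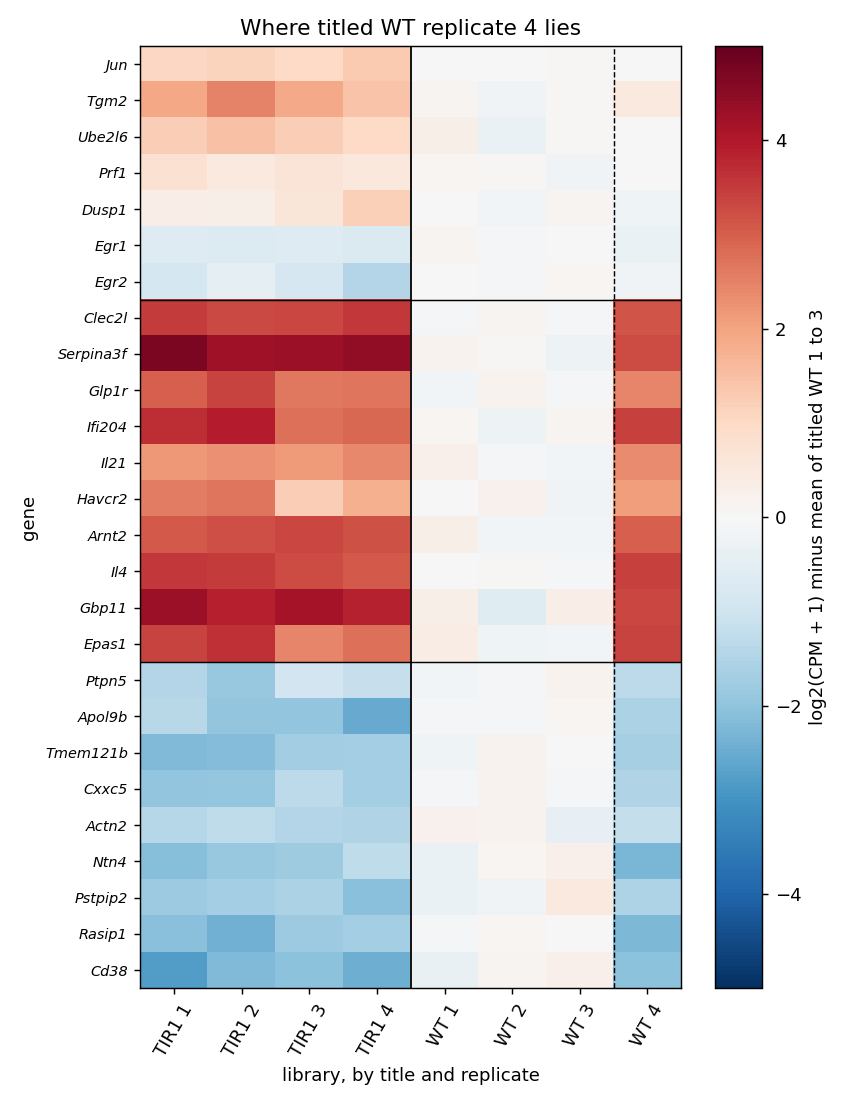
Heat map of log2(CPM + 1) relative to the mean of titled WT replicates 1 to 3, with 1 column per library and 1 row per gene, for the 10 largest increases, 9 of the 10 largest decreases and 7 genes chosen after their values were seen (Jun, Tgm2, Ube2l6, Prf1, Dusp1, Egr1 and Egr2). Titled WT replicate 4, in the last column, is coloured in the direction of titled TIR1 for the 19 genes with large changes, while for Jun, Tgm2, Ube2l6, Prf1, Dusp1, Egr1 and Egr2 it is closer to the other titled WT libraries.

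Genes that mark Treg cells moved in both directions. Of 27 core genes, 5 were higher and 11 lower with 7 libraries, and none passed edgeR's test with 8, where 8 were higher and 9 lower at an unadjusted p under 0.05 and DESeq2 called 3 higher and 7 lower. The median log2 fold change was -0.22 with 7 libraries and -0.14 with 8, while that of all genes tested was -0.000848 and -0.00516. The higher genes were Ctla4, Entpd1, Itgae, Fgl2 and Tnfsf8.

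Ctla4, the inhibitory receptor for CD80 and CD86 (chromosome 1, 60926159 to 60954991), was at 429.7, 383, 379 and 488 CPM in titled TIR1 and at 259, 192, 208 and 302 CPM in titled WT libraries. The fit gave a log2 fold change of 0.96 ± 0.12 with 7 libraries and 0.83 ± 0.14 with 8, with edgeR adjusted p = 0.000329 and 0.0652. Here titled WT replicate 4 was the highest of its group, yet the 2 groups did not overlap. Itgae, the alpha E integrin CD103, was at 141, 128, 99.6 and 117 CPM against 27.5, 26.5, 20.7 and 103 CPM. Fgl2, a secreted suppressive protein, was at 83.7, 75.3, 79.7 and 89.7 CPM against 20.5, 23.4, 21.1 and 67.4 CPM. For Itgae, where titled WT replicate 4 lay inside the titled TIR1 range, the log2 fold change of 2.31 ± 0.14 with 7 libraries became 1.47 ± 0.54 with 8. For Fgl2 it lay between the groups.

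Among the 11 lower genes, Il2ra, the IL-2 receptor alpha chain CD25 (chromosome 2, 11647618 to 11698004), was at 450.3, 494, 483 and 347 CPM in titled TIR1 and at 620, 663, 689 and 388 CPM in titled WT libraries. This was a log2 fold change of -0.55 ± 0.11 with 7 libraries and -0.40 ± 0.18 with 8, with edgeR adjusted p = 0.00606 and 0.295. Itgb8, whose integrin activates latent TGF-beta, was at 4.12, 6.70, 3.85 and 3.62 CPM against 18.9, 14.5, 18.8 and 3.44 CPM. Tnfrsf9, the costimulatory receptor 4-1BB, was at 111, 99.0, 89.6 and 84.5 CPM against 198, 199, 198 and 84.6 CPM. In Il2ra and Tnfrsf9 titled WT replicate 4 was inside the titled TIR1 range, and in Itgb8 it was below the lowest titled TIR1 library.

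Without titled WT replicate 3 as well, the calls of Gpr83 and Nrp1 were lost (edgeR adjusted p = 0.0599 and 0.0654), and that of Nrp1 also without titled TIR1 replicate 4 or titled WT replicate 2 (0.0765 and 0.0721). Ikzf4, Nt5e, Gpr83, Izumo1r, Nrp1, Plagl1, Tnfrsf18 and Rgs16 were the other 8 lower genes. Of these, Tnfrsf18, which encodes GITR and shares 27.2% of its exon bases with another gene, had a log2 fold change of -0.43 ± 0.07 with 7 libraries, and Plagl1, a zinc finger factor, was at 8.99, 10.4, 7.89 and 10.9 CPM against 19.3, 18.6, 20.4 and 9.48 CPM. Core genes that did not pass included Ikzf2, Lrrc32 and Tnfrsf4, the last with a log2 fold change of 0.07 ± 0.10 with 8 libraries. Of 16 genes normally low in Treg cells, 5 were higher and 1 lower with 7 libraries, and 3 were higher and 1 lower by DESeq2 with 8. Id2, an inhibitor of E-protein factors, was at 154, 136, 128 and 134 CPM against 49.7, 49.1, 56.0 and 132 CPM. Pde3b, the phosphodiesterase gene that Foxp3 is known to repress, was at 223, 221, 192 and 184 CPM in titled TIR1 and at 80.0, 51.7, 66.3 and 171 CPM in titled WT libraries. Its log2 fold change was 1.65 ± 0.13 with 7 libraries and 1.17 ± 0.34 with 8, with edgeR adjusted p = 2.25e-05 and 0.147. Satb1, a chromatin organiser of T cells, was at 949.7, 999, 959 and 991 CPM against 743, 699, 703 and 927 CPM.

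The regulators of effector Treg cells stood higher in 7 of 16 genes and lower in 1 with 7 libraries, with a median log2 fold change of 0.41. With 8 libraries DESeq2 called 1 higher and 2 lower. It gave no adjusted p for Prdm1 or Il10, so these counts leave both out. The median was 0.33, and no gene of the list was free of overlap between the titled groups. Prdm1, which encodes Blimp-1 (chromosome 10, 44313173 to 44404497), was at 72.1, 69.6, 60.9 and 77.5 CPM in titled TIR1 and at 13.6, 12.1, 10.6 and 65.1 CPM in titled WT libraries. The fit gave a log2 fold change of 2.56 ± 0.12 with 7 libraries and 1.49 ± 0.63 with 8, with edgeR adjusted p = 6.21e-07 and 0.285. Il10, an anti-inflammatory cytokine, was at 24.2, 18.9, 22.1 and 27.9 CPM against 2.65, 1.31, 0.726 and 20.3 CPM. Titled WT replicate 4 was inside the titled TIR1 range for all 8 called genes of this list. Klrg1, a marker of terminally differentiated cells, was the 1 lower gene, at 1.13, 2.88, 2.32 and 2.78 CPM against 6.20, 9.10, 11.2 and 2.06 CPM.

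Coinhibitory and costimulatory receptors were split, with 5 of 15 higher and 5 lower with 7 libraries, and 1 higher and 3 lower by DESeq2 with 8. Tigit was at 46.3, 39.1, 36.6 and 49.6 CPM in titled TIR1 and at 4.75, 4.59, 4.07 and 41.5 CPM in titled WT libraries, a log2 fold change of 3.28 ± 0.15 with 7 libraries and 1.66 ± 0.83 with 8. Lag3, an inhibitory receptor for MHC class II, was at 15.3, 14.1, 16.8 and 23.9 CPM against 3.93, 3.48, 2.98 and 17.9 CPM. Both had titled WT replicate 4 among the titled TIR1 libraries. Pdcd1, which encodes PD-1, went the other way, at 44.1, 57.0, 39.1 and 37.1 CPM against 89.9, 102, 87.9 and 60.7 CPM. This was a log2 fold change of -1.06 ± 0.13 with 7 libraries and -0.93 ± 0.17 with 8 (edgeR adjusted p = 0.000393 and 0.0726), and the 2 groups did not overlap.

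Helper and cytotoxic genes were higher in part. In the Th1 and cytotoxic list, 9 of 17 tested genes were higher and 3 lower with 7 libraries, and DESeq2 called 4 higher and 0 lower with 8. Tbx21, which encodes T-bet, the master factor of type 1 helper cells (chromosome 11, 96988897 to 97006157), was at 22.2, 22.3, 20.1 and 15.7 CPM in titled TIR1 and at 11.7, 7.79, 5.14 and 12.6 CPM in titled WT libraries. Its log2 fold change was 1.30 ± 0.24 with 7 libraries and 1.12 ± 0.25 with 8, with edgeR adjusted p = 0.00449 and 0.0918. The groups did not overlap.

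Cxcr3, the chemokine receptor that T-bet induces, was at 48.5, 56.7, 38.3 and 56.7 CPM against 23.7, 16.4, 11.4 and 31.2 CPM. Gzmb, the protease granzyme B, was at 33.7, 39.6, 29.1 and 25.3 CPM against 3.58, 2.23, 1.86 and 20.9 CPM. Ifng, the signature cytokine of these cells, was under 3 CPM in every library, at 2.88, 2.82, 1.06 and 1.06 CPM against 0.911, 0.297, 0.363 and 1.42 CPM. It passed the test with 7 libraries (edgeR adjusted p = 0.0359) and not with 8 (adjusted p = 0.21), and with 7 libraries lost the call without titled TIR1 replicate 1 or 2 or titled WT replicate 2 or 3 (adjusted p = 0.0874 to 0.137). Hopx, Nkg7 and Xcl1 were the lower genes. Nkg7, a cytotoxic granule protein, was at 27.4, 28.5, 15.7 and 22.6 CPM against 54.5, 43.5, 42.9 and 16.8 CPM. In the Th2 list 2 of 8 tested genes were higher and 1 lower with 7 libraries, and DESeq2 called 0 higher and 2 lower with 8. In the Th17 list 3 of 6 were higher with 7 libraries, and with 8 none passed edgeR's or DESeq2's test and 0 had an unadjusted p under 0.05 in edgeR.

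Chemokine receptors and integrins were higher in 8 of 25 genes and lower in 2 with 7 libraries, and DESeq2 called 4 higher and 1 lower with 8. Cxcr6, the receptor for CXCL16, was at 37.0, 39.5, 31.2 and 43.5 CPM in titled TIR1 and at 7.40, 10.3, 11.8 and 21.8 CPM in titled WT libraries. The fit gave a log2 fold change of 1.96 ± 0.17 with 7 libraries and 1.58 ± 0.29 with 8, with edgeR adjusted p = 4.78e-05 and 0.0726. Cxcr6 did not overlap between the titled groups, and titled WT replicate 4 was the highest titled WT library. Ccr2, a receptor of inflammatory chemokines, was at 47.7, 63.9, 39.0 and 49.8 CPM against 22.0, 20.2, 13.4 and 39.6 CPM, with titled WT replicate 4 inside the titled TIR1 range. Ccr9, the gut-homing receptor, was lower, at 23.2, 20.5, 16.9 and 20.5 CPM against 30.5, 30.7, 32.6 and 19.2 CPM.

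Interferon-gamma response genes had 21 of 25 tested genes higher and none lower with 7 libraries, beside the 6.55% of all genes that were higher. Their median log2 fold change was 0.67 with 7 libraries and 0.59 with 8. With all 8 libraries edgeR called none, although 23 were higher at an unadjusted p under 0.05, DESeq2 called 20 higher, and 10 were higher with no overlap between the titled groups. The list holds guanylate-binding proteins, immunity-related GTPases and antigen-processing genes.

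Gbp2, a guanylate-binding protein that attacks the vacuoles of intracellular pathogens (chromosome 3, 142326363 to 142343769), was at 323, 341, 304 and 194 CPM in titled TIR1 and at 142, 107, 125 and 190.1 CPM in titled WT libraries. This was a log2 fold change of 1.24 ± 0.17 with 7 libraries and 1.06 ± 0.21 with 8, with edgeR adjusted p = 0.000575 and 0.0781. Gbp3 was at 152, 155, 138 and 108 CPM against 73.9, 51.2, 53.2 and 99.8 CPM. In both genes titled WT replicate 4 came just below the lowest titled TIR1 library. Tap1, which carries peptides to MHC class I, was at 942, 891, 878 and 845 CPM against 632, 605, 565 and 743 CPM. Psmb9, a subunit of the immunoproteasome, was at 379.6, 380.5, 373 and 384 CPM against 275, 268, 270.3 and 329.5 CPM. These 2 genes had titled WT replicate 4 between the groups, and log2 fold changes with 8 libraries of 0.50 ± 0.08 and 0.43 ± 0.07 with edgeR adjusted p = 0.0652 for both.

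Irf1, a transcription factor at the head of this response (chromosome 11, 53660841 to 53669200), was at 625, 536, 532 and 452 CPM in titled TIR1 and at 405, 298, 348 and 460.05 CPM in titled WT libraries. Titled WT replicate 4 crossed into the titled TIR1 range. The log2 fold change was 0.64 ± 0.11 with 7 libraries and 0.53 ± 0.13 with 8, with edgeR adjusted p = 0.00388 and 0.102. Irf1 shares part of its exon bases with another gene.

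The promoters of 3 genes of this list are shown because they carry the elements to which the STAT and IRF factors of the pathway are known to bind. They are from RefSeq on GRCm38.p6, all on the plus strand, each with its match in capitals. The Irf1 window is chr11:53769764-53770063 with the GAS-type element TTCNNNGAA, 82 bases before the start. The Gbp2 window is chr3:142620413-142620712 and the Gbp3 window chr3:142559794-142560093. Both hold the ISRE-type element, a pair of GAAA with any 2 bases between, read on the other strand. In Gbp2 it lies 50 bases before the start. The Gbp3 capitals hold 2 overlapping matches, and the match farther from the start lies 36 bases before it.

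Irf1: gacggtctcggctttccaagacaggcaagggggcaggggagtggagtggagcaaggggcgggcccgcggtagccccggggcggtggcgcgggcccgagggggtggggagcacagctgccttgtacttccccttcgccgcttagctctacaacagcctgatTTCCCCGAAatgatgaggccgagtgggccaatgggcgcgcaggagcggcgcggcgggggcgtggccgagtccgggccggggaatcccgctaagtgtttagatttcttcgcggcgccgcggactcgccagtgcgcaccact
Gbp2: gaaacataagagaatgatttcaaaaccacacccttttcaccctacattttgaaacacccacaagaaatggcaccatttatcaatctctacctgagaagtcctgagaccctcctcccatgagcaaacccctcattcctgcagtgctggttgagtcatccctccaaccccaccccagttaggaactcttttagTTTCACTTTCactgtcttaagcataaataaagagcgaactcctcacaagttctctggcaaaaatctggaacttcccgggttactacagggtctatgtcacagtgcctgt
Gbp3: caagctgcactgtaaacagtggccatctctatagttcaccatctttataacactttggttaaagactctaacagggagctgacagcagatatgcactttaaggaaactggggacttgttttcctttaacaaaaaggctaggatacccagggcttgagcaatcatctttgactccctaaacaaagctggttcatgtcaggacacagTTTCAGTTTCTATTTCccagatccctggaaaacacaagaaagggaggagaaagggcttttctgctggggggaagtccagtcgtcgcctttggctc

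Of the 26 genes of the list, 19 were matched in the promoter table, and 9 of these (47.4%) held the GAS-type and 11 (57.9%) the ISRE-type letters on either strand. Over all 27025 gene symbols of the table the shares were 9.55% and 3.99%. The list was made of genes known to respond to interferon, so the shares describe its choice and say nothing of these libraries.

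Of 30 type I interferon response genes, 4 were higher and 1 lower with 7 libraries, beside 6.55% and 4.44% of all genes tested. The median log2 fold change was 0.10. With 8 libraries edgeR called Ube2l6 of this list, DESeq2 called 5 higher and 0 lower, and the median was 0.16. The difference between the 2 interferon lists was not tested. Isg15, the ubiquitin-like protein that Ube2l6 conjugates, was at 36.2, 37.2, 37.8 and 23.7 CPM in titled TIR1 and at 45.6, 32.3, 45.9 and 28.2 CPM in titled WT libraries, with a log2 fold change of -0.16 ± 0.19 with 8 libraries. Ifit1, an RNA-binding antiviral protein, was at 88.8, 108, 122 and 47.4 CPM against 155, 84.6, 148 and 64.6 CPM. Both overlapped between the groups. Ube2l6, Zbp1 and Isg20 were among the higher genes, and the lower was Ifi27l2a.

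Immediate-early genes, which T cell receptor signals switch on within minutes to hours, were lower in 9 of 24 tested genes and higher in 2 with 7 libraries, Jun being 1 of the 2, and DESeq2 called 3 higher and 7 lower with 8. Egr1, a zinc finger factor, was at 235, 232, 235 and 224 CPM in titled TIR1 and at 401, 345, 365 and 297 CPM in titled WT libraries. Its log2 fold change was -0.66 ± 0.07 with 7 libraries and -0.59 ± 0.09 with 8, with edgeR adjusted p = 0.000136 and 0.0652. Egr2, a relative that limits T cell activation, was at 62.4, 80.3, 63.3 and 41.0 CPM against 115, 107, 122 and 101 CPM. The groups did not overlap for either gene.

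Nr4a1, the orphan receptor Nur77 that reports antigen receptor signalling, was at 152, 167, 149 and 134 CPM against 281, 297.5, 297 and 161 CPM. Nr4a2, Nr4a3, Egr3, Ier5, Klf6 and Zfp36l1 were the other lower genes. Dusp1, a phosphatase that switches off MAP kinases, was the higher gene beside Jun, at 199, 197, 240.3 and 365 CPM against 162, 142, 173 and 137 CPM. It passed with 7 libraries (edgeR adjusted p = 0.0402) but not with 8 (0.116), nor with 7 when titled TIR1 replicate 3 or any further titled WT library was left out (0.0703 to 0.143). Fos, the partner of Jun in AP-1, was at 74.1, 85.6, 70.6 and 129 CPM against 65.8, 57.9, 67.2 and 57.3 CPM, with no overlap, but did not pass edgeR's test with 7 libraries (adjusted p = 0.0943) or 8 (adjusted p = 0.149). Of the 20 genes of the T cell receptor and its signalling, the 1 that passed was Cd5, an inhibitory coreceptor, which was lower with 7 libraries. That count is close to the 4.44% of all genes that were lower and is no result about the list.

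With 7 libraries all 30 genes of the G2/M list were higher in titled TIR1, and 25 of 30 G1/S genes were higher and 1, Ccnd2, lower. The median log2 fold changes were 1.45 and 0.82, and 1.06 and 0.63 with 8 libraries, in which edgeR called none of them. At an unadjusted p under 0.05 the 30 G2/M genes and 25 of the G1/S genes were higher there, and DESeq2 called 17 higher in each list. Top2a, the topoisomerase of dividing cells (chromosome 11, 98883769 to 98915015), was at 359.5, 437, 329.8 and 279 CPM in titled TIR1 and at 99.8, 139.7, 131 and 269.8 CPM in titled WT libraries. The fit gave a log2 fold change of 1.53 ± 0.15 with 7 libraries and 1.15 ± 0.30 with 8, with edgeR adjusted p = 9.21e-05 and 0.122.

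Mki67, the gene of the Ki-67 protein of cycling cells, was at 176, 229, 124 and 145 CPM against 45.8, 75.5, 63.2 and 133 CPM. Rrm2, the ribonucleotide reductase subunit made in S phase, was at 242, 347, 212 and 189 CPM against 58.1, 100.03, 85.2 and 199 CPM. Cdk6, a G1 kinase, was at 159.8, 143, 141 and 127 CPM against 64.5, 80.5, 67.5 and 120.02 CPM. For 13 of the G2/M genes titled WT replicate 4 lay between the groups and for 17 inside the titled TIR1 range. In the G1/S list those numbers were 5 and 21.

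In the IL-2 and STAT5 list 4 of 16 genes were higher and 2 lower with 7 libraries, and DESeq2 called 4 higher and 0 lower with 8. Among the higher genes was Cish, a STAT5 target that damps cytokine signals, at 452, 350.5, 432 and 402 CPM against 314, 313, 287 and 350.1 CPM. Of 13 TNF ligands, 12 were tested, with Tnfsf8 and Tnfsf13b higher and Tnf, Lta and Tnfsf10 lower with 7 libraries, while DESeq2 called 0 higher and 1 lower with 8. Tnf was at 21.3, 30.2, 21.2 and 16.3 CPM in titled TIR1 and at 46.1, 39.8, 35.4 and 23.4 CPM in titled WT libraries. Tgfb1, the main TGF-beta of Treg cells, was at 140.2, 146, 167 and 158 CPM against 206, 255, 226 and 154 CPM. For both, titled WT replicate 4 was inside the titled TIR1 range. Cholesterol synthesis genes were lower in 3 of 22 (Dhcr7 and Sc5d among them) and higher in 0 with 7 libraries, with 0 higher and 1 lower by DESeq2 with 8. Glycolysis genes were higher in 5 of 18 and lower in 2, with 1 higher and 2 lower by DESeq2 with 8. Tfh genes were higher in 2 of 11 and lower in 4, with 0 higher and 4 lower by DESeq2 with 8. Naive and recirculation genes were higher in 3 of 18 and lower in 5, with 2 higher and 3 lower by DESeq2 with 8. In suppression and TGF-beta activation, 4 of 14 tested genes were higher and 5 lower, with 2 higher and 4 lower by DESeq2 with 8. The 2 of 18 BCL2 family and p53 target genes (Bcl2 and Cdkn1a) and the 2 of 23 tested heat shock and unfolded protein genes that were higher with 7 libraries are close to the 6.55% of all genes and are no result about those lists, and 4 of the latter were lower.

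**Figure D4:**
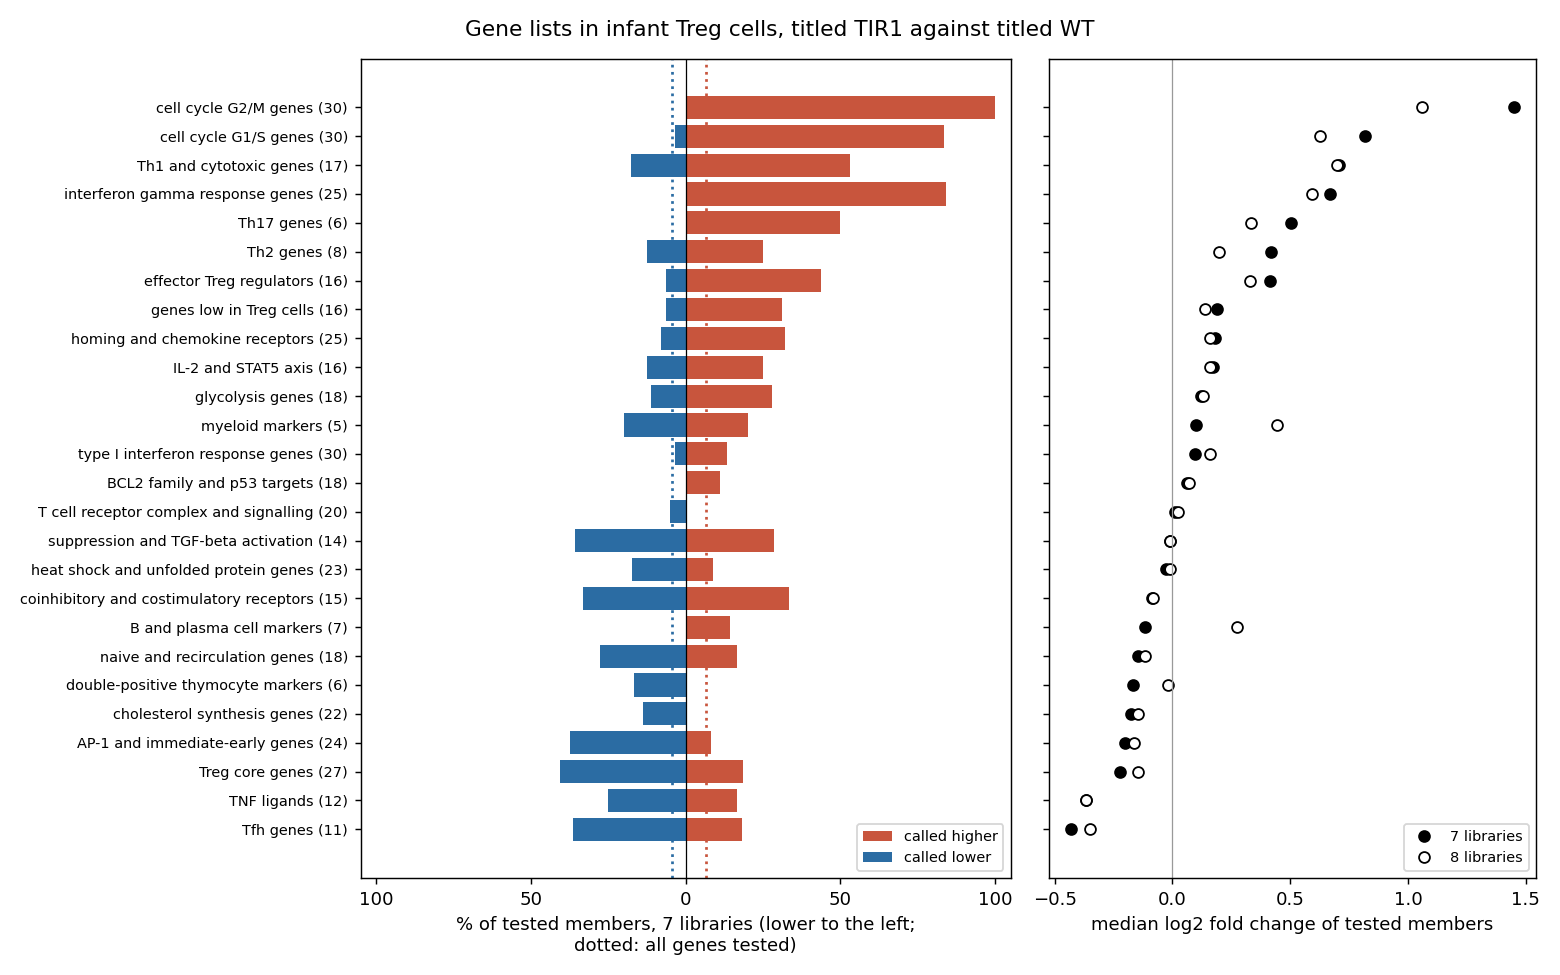
Left, the share of each list's tested members called higher (to the right) or lower (to the left) in titled TIR1 by edgeR with 7 libraries, with dotted lines at 6.55% and 4.44% of all genes tested. Right, the median log2 fold change of each list with 7 and with 8 libraries; the G2/M list has 1.45 and 1.06.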

How the data were processed

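Infant Treg cell RNA was read with polyA-selected SMART-Seq v4 libraries. The deposited values are raw counts of read pairs per gene, which the authors made with featureCounts 2.0.3, per the file headers over GENCODE genes on GRCm39, without strand and keeping alignments of mapping quality 30 or more. The study's methods name STAR as the aligner, the submitters' processing notes Bowtie2, and DESeq2 and mm39. Without strand, reads on overlapping exons cannot be divided. Of the 101 genes that were checked one by one, 17 share over 5% of their exon bases with another gene, among them Foxp3 (31.5%), Rasip1 (53.3%), Tnfrsf18 (27.2%), Ifng (25.9%), Tgm2 (21.8%), Ccr9 (21.5%) and Irf1. Gbp and other multigene families with near-identical copies are uncertain too.

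Genes averaging 10 or more counts over the fitted libraries entered edgeR (4.0.16, R 4.3.3), whose quasi-likelihood test was run with TMM factors, robust estimation and group as the only term. Calls were made at a Benjamini-Hochberg adjusted p under 0.05. The fit was made with 8 libraries and with 7. Standard errors were derived from the F statistic. CPM values are counts scaled to the library total without TMM factors. The labels do not say that replicates are separate animals, so p-values measure only the spread between these libraries. Every pair of libraries differed by more than sampling noise, with a chi-square of 17.3 per gene or more. Alternatives used DESeq2 1.42.0 (counts of calls leave out genes whose adjusted p it gives as NA), limma 3.58.1, RLE size factors, no count filter, estimation without the robust option, thinning to the shallowest library, a replicate block and leaving out each library. The scripts were checked on simulated data.

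The genes named are Foxp3, Gt(ROSA)26Sor, those called with 8 libraries, the 10 with the largest change in each direction among genes called with 7 libraries that averaged 100 or more counts, no overlap of the 7 libraries and no predicted gene model as symbol, key genes of the lists, and up to 4 further members per list with the smallest p. For some lists the genes called are named beside the count whether or not the rule takes them, and for others only part or none are named. The members and lists were chosen with earlier results of these data known. Some genes that the rule names are not reported here, although the counts of genes and lists include them. Each list is described by its counts and median. RefSeq promoters of GRCm38.p6 were matched by gene symbol and were used for sequence only, and the gene positions are those of GRCm39 in the deposited tables.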

Additional observations from a re-analysis of the deposited data

Results flagged for a closer look

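In each titled group of 4 libraries, the highest and lowest library was compared with the others by Dixon's ratio for the 101 genes that were checked one by one, most of which are given with values above. Chance marks about 1 in 20 groups. In titled WT, 34 genes had a library that stood apart, and it was replicate 4 in all 34. In titled TIR1 this held for 2 genes. The genes were named partly for a difference that leaving out titled WT replicate 4 shows, so the 34 are not a count over unselected genes.

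Titled WT replicate 4 was above the other 3 titled WT libraries for Fgl2 (67.4 CPM, others 20.5 to 23.4), Itgae (103 CPM, others 20.7 to 27.5), Tnfsf8 (172 CPM, others 47.4 to 59.9), Id2 (132 CPM, others 49.1 to 56.0), Tcf7 (1775 CPM, others 1339 to 1400.1), Prdm1 (65.1 CPM, others 10.6 to 13.6) and Tigit (41.5 CPM, others 4.07 to 4.75). It was also above them for Icos (354 CPM, others up to 143), Il10 (20.3 CPM, others 0.726 to 2.65), Gzmb (20.9 CPM, others 1.86 to 3.58), Gzma (2.71 CPM, others 0.174 to 0.544), Eomes (16.1 CPM, others 1.94 to 3.96), Il4 (17.5 CPM, others 0.645 to 0.771) and Il21 (4.77 CPM, others 0 to 0.310). Higher values in that library were found for Lag3 (17.9 CPM, others 2.98 to 3.93), Havcr2 (3.89 CPM, others 0 to 0.316), Tnfsf13b (5.63 CPM, others 0.639 to 0.890), Psmb9 (329.5 CPM, others 268 to 275), Clec2l (8.21 CPM, others 0 to 0.138) and Serpina3f (11.5 CPM, others 0.101 to 0.504). The same direction was seen for Glp1r (4.89 CPM, others 0 to 0.237), Ifi204 (12.3 CPM, others 0.0396 to 0.363), Arnt2 (10.6 CPM, others 0.336 to 0.794), Gbp11 (49.6 CPM, others 2.29 to 5.30) and Epas1 (20.1 CPM, others 0.751 to 1.63).

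That library was below the other 3 for Tnfrsf18 (201 CPM, others 330.3 to 341), Tnfrsf9 (84.6 CPM, others 198 to 199), Gpr83 (316 CPM, others 468 to 493), Plagl1 (9.48 CPM, others 18.6 to 20.4), Ccr9 (19.2 CPM, others 30.5 to 32.6) and Tox (101 CPM, others 166 to 178). Lower values were also found for Nr4a1 (161 CPM, others 281 to 298), Slc2a3 (43.5 CPM, others 83.3 to 90.4) and Rasip1 (1.43 CPM, others 9.86 to 11.5).

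Within titled TIR1, Itgb8 stood at 6.70 CPM in titled TIR1 replicate 2 beside 3.62 to 4.12 CPM in the other 3. Isg15 stood at 23.7 CPM in titled TIR1 replicate 4 beside 36.2 to 37.8 CPM in the other 3.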

How the results depend on the processing

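With 8 libraries the count of 3 genes became 149 without the count filter, 1108 with DESeq2, 1427 with limma-voom and sample quality weights and 7 with a replicate block (3 higher, 4 lower, with 1 of the original 3, Jun, among them, while Tgm2 and Ube2l6 had edgeR adjusted p = 0.0792 and 0.073), and it stayed at 3 with RLE size factors, without robust estimation and after thinning. Leaving out 1 library gave 1 to 1774 genes, the latter without titled WT replicate 4. In limma-voom titled WT replicate 4 had a weight of 0.539 and titled TIR1 replicate 4 of 0.563, and the others 1.10 to 1.43. With 7 libraries the count of 1774 ran from 1775 to 2487 under the alternatives, of which 1605 to 1764 genes were shared with it, and from 1145 to 2127 when 1 more library was left out, 1145 being without titled WT replicate 3. The cause was not tested.

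Of 1515 comparisons of the 101 genes with 8 libraries, 1280 kept their direction and side of the threshold, 10 lost the call, 215 gained it and 10 turned sign. With 7 libraries, 1379 of 1414 kept both, 23 lost the call, 3 gained it and 9 turned sign. All turned signs belonged to genes that were not called. Ccr8 with 8 libraries had a log2 fold change of 0.0123 with the replicate block and 0.00452 after thinning, and of -0.199 to 0.0886 when single libraries were left out. Tnfrsf4 with 7 libraries had -0.0056 without the count filter, -0.0211 with limma-voom, -0.0536 with the block and -0.0631 to 0.0599 when libraries were left out. Foxp3 with 8 libraries ranged from -0.148 to 0.0155 when libraries were left out. Gt(ROSA)26Sor ranged from -0.0814 to 0.109 with 8 libraries and from -0.102 to 0.182 with 7.

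Whether replicate numbers pair the groups was not settled. The check used group means that include titled WT replicate 4, so it cannot exclude a pairing. The correlations of same-numbered libraries' deviations from their group means were 0.0103, -0.103, 0.129 and -0.0689. The block moved the counts to 7 and to 2155. Of the titled TIR1 libraries, only replicate 3 correlated best with the titled WT library of its own number (0.129). Sex could not be added as a term, since all 8 libraries had reads of the Y-linked gene Ddx3y, at 123 to 176 CPM. Shallower titled TIR1 libraries limit low genes, and thinning to the shallowest library gave 3 and 1822 genes.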
